A study of Mus musculus with 4 samples.

Results

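The destruction complex, the tankyrases that act on it, and β-catenin with a pair of its TCF partners were followed through 5 lists of Smad1 ChIP–seq peaks. The 9 genes are Axin1, Apc, Gsk3b, Csnk1a1, Tnks, Tnks2, Ctnnb1, Tcf7l1 and Tcf7l2. They were chosen by name as the route on which IWR-1 acts, and every deposited peak within 20 kb of their gene bodies in mm10 was read. Their windows held 10 of the 10466 sites that both peak callers shared in the DMSO control, here called common DMSO sites. Smad1 ChIP and input chromatin came from day 4 embryoid bodies (EBs), clusters of ES cells left to differentiate. The EBs were of the GFP-Bry ES line, strain C57BL/6, reaggregated, and kept for 24 h in DMSO, the vehicle, or in 10 µM IWR-1. Both treatments used this reporter line, in which the mesodermal gene Brachyury drives GFP, and the methods name no sort of the cells before ChIP. The peak lists hold no expression, so cell type markers could not be checked. Each treatment had 1 ChIP and 1 input library, so differences between treatments were not checked by replicates and carry no p-value.

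In the absence of Wnt, the destruction complex holds β-catenin for degradation. AXIN1 and APC are its scaffolds, and the kinases CK1α (Csnk1a1) and GSK3β (Gsk3b) phosphorylate β-catenin within it. Tankyrases (Tnks and Tnks2) mark AXIN for destruction, and IWR-1, which inhibits tankyrases, stabilizes AXIN and so lowers β-catenin. When β-catenin (Ctnnb1) reaches the nucleus it joins DNA-bound TCF proteins, of which TCF7L1 acts mostly as a repressor in ES cells and TCF7L2 activates or represses by context. Smad1 is the effector of BMP signals, and GSK3 also phosphorylates it.

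The peak lists need a word on their identity. The lists hold positions, and the MACS lists also a score, which ranks peaks within 1 list and starts at 50.0. The number of reads behind a peak is unknown. Every common DMSO site was an interval of 1 QESEQ list (26070 peaks) and overlapped 1 MACS list (15927 peaks), which are therefore taken as the DMSO lists although the labels file them under input libraries. The label of the QESEQ list is that of the IWR-1 input, so its treatment disagrees too. For IWR-1, the QESEQ list with that ChIP's label was used (16261 peaks). Only its label ties it to IWR-1, while the labels of the other lists disagree with their use. Each IWR-1 QESEQ call therefore rests on that label. The second MACS list (7815 peaks) is labelled DMSO ChIP. It was taken for IWR-1 because no other list was left for that treatment, and each statement drawn from it rests on this choice.

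Common DMSO sites lay in the windows of 7 of the 9 genes and were missing from those of Tnks and Ctnnb1. Of the 21938 protein-coding genes, 35.1% had such a site within 20 kb. The windows of the 9 genes were long, 71.3 to 232 kb with a median of 142 kb against 57.4 kb for all coding genes. Among the 6371 coding genes with windows in that range of lengths, 46.0% had a site. Per length, the 9 genes held 0.772 common DMSO sites per 100 kb over 1.30 Mb, and all coding windows held 0.575. Each scaffold and each kinase had at least 1 site, of the tankyrases only Tnks2 did, and both TCF genes did. Tcf7l1 had 3, the highest number of the 9 genes.

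The same windows were read in the lists of each caller. DMSO MACS listed 13 peaks at 8 of the genes (44.2% of coding genes had one) and DMSO QESEQ 25 peaks at 8 genes (60.2%). IWR-1 QESEQ listed 13 peaks at 5 genes (47.1%), and the second MACS list 9 peaks at 6 genes (26.8%). Among coding genes of like window length, these shares were 57.2% for DMSO MACS, 73.1% for DMSO QESEQ, 58.0% for IWR-1 QESEQ and 35.2% for the second MACS list. The 5 of 9 genes with an IWR-1 QESEQ peak thus lay above the share of all coding genes but not above that of genes of like length. The densities of 1.00 for DMSO MACS, 1.93 for DMSO QESEQ, 1.00 for IWR-1 QESEQ and 0.695 for the second MACS list stood beside 0.805, 1.49, 0.936 and 0.398 peaks per 100 kb over all coding windows. All 5 lists were denser at these genes than over coding windows, but the peaks are few and these ratios are descriptions.

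**Figure D1:**
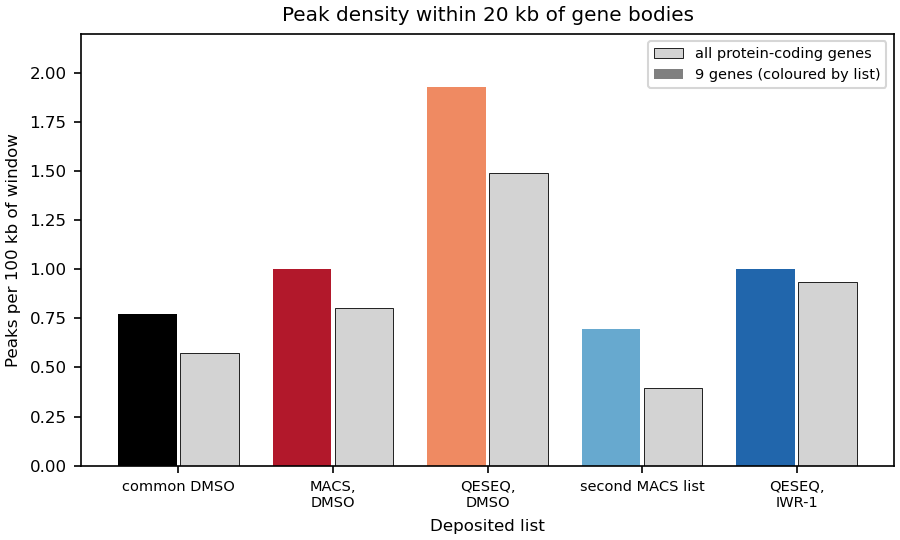
Peaks per 100 kb of window (vertical axis) for each deposited list (horizontal axis), in the windows of the 9 genes (coloured bars) and of all 21938 protein-coding genes (grey bars). In the common DMSO list the values are 0.772 and 0.575.

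The peak map places these calls along each gene. None of the 10 common DMSO sites lay within 1 kb of a coding start, against 6.44% of all common sites, and none overlapped a tRNA gene, against 2.04%. Their median distance to the nearest coding start was 7.63 kb, against 24.3 kb over all sites, which is a comparison of sites chosen near genes with sites anywhere. In all, 6 of the 10 sites overlapped a gene body of the 9 and 4 lay outside one.

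**Figure D2:**
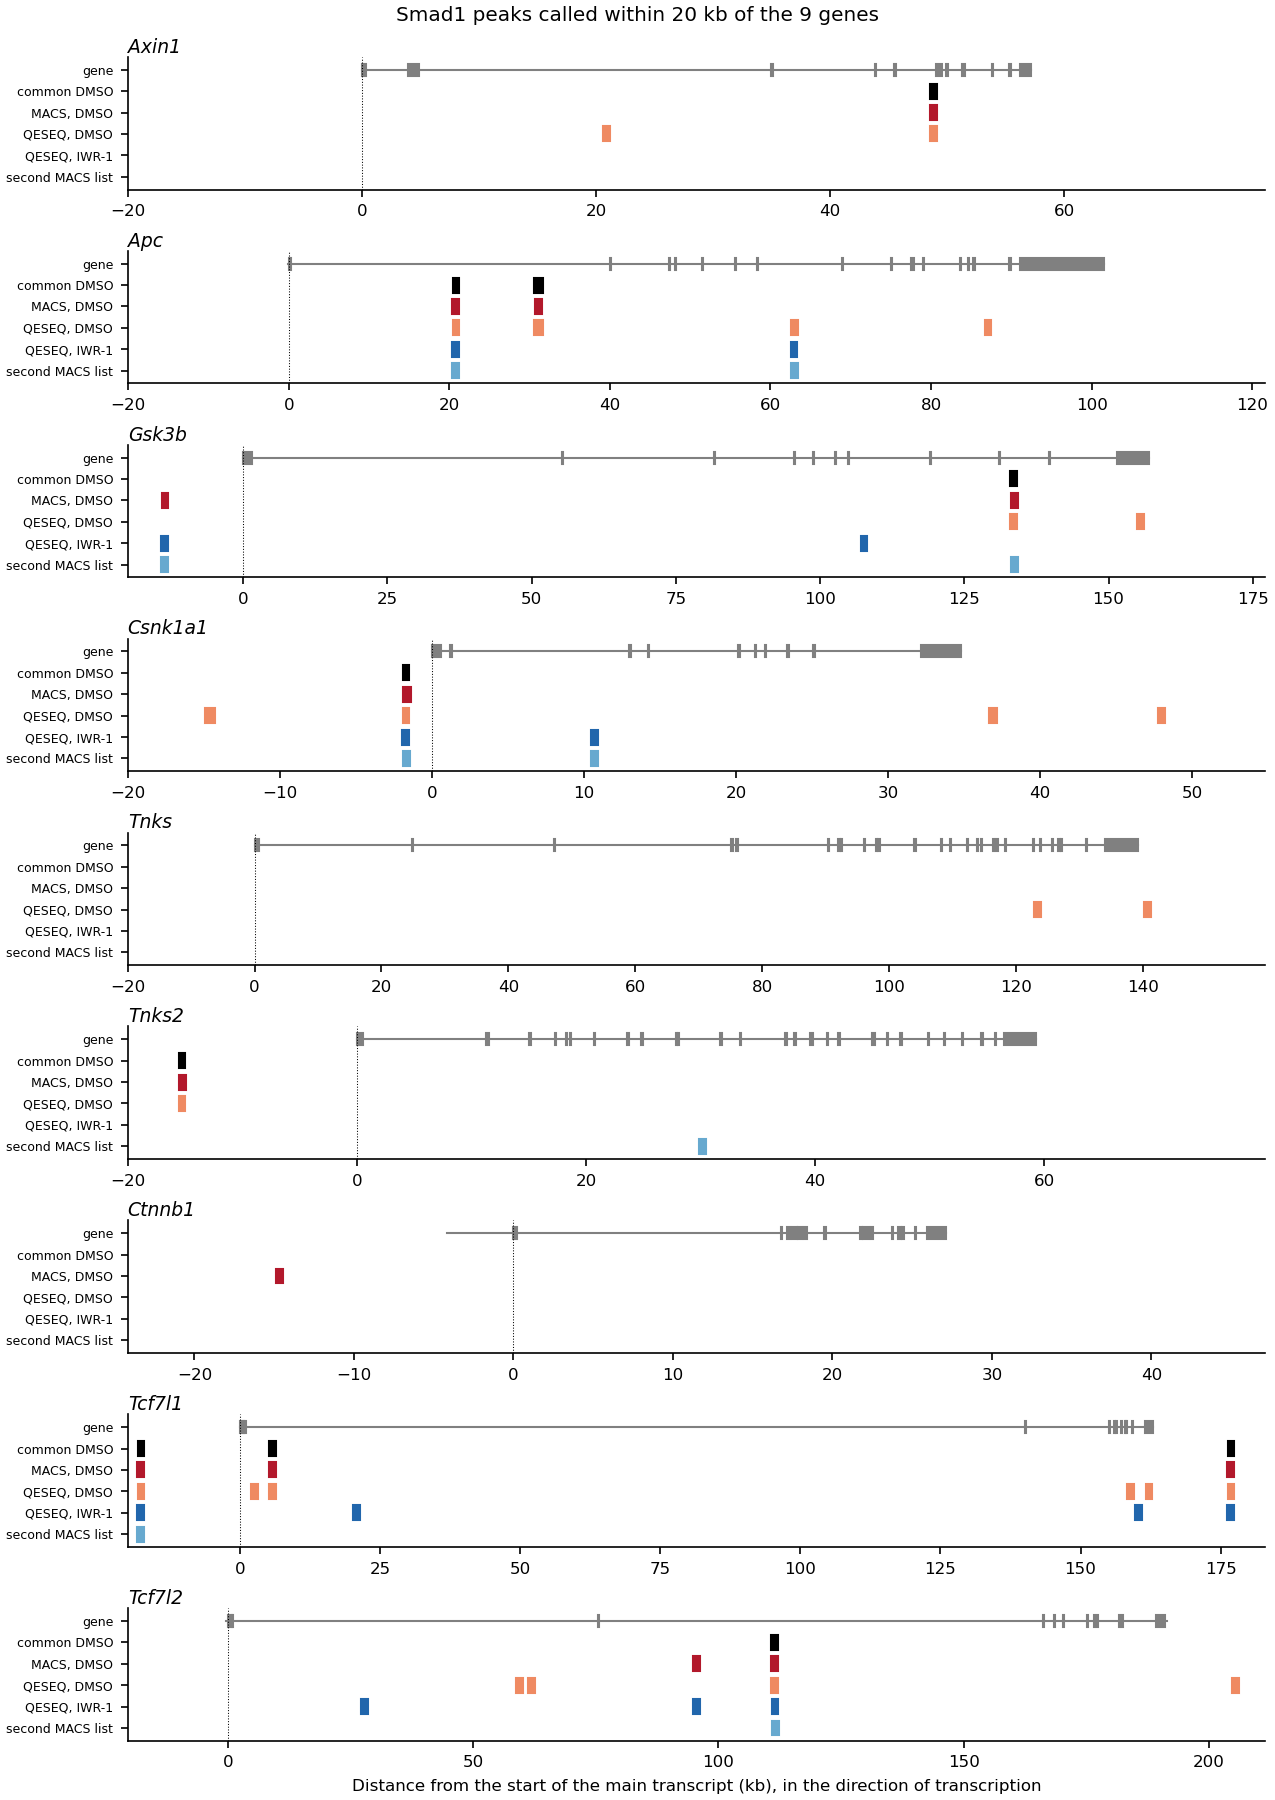
Peaks of the 5 lists within 20 kb of each gene, by distance in kb from the start of its main transcript in the direction of transcription (horizontal axis, scaled per gene), with 1 row per list and exons of the main transcript as grey blocks. Peaks are widened to a visible minimum. Only single-caller DMSO peaks are seen at Tnks and Ctnnb1, and the common DMSO sites of Axin1 and Tnks2 have no IWR-1 peak under them.

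To show what was called, the sequence of the highest-scoring common DMSO site of Axin1, Gsk3b, Tnks2 and Tcf7l2 is printed as the central 300 bases (mm10, plus strand, read from NCBI's GRCm38). The highest-scoring sites of Apc, Csnk1a1 and Tcf7l1 are given by position and values only. Capitals mark runs of at least 7 A or 7 T and any of 6 short elements searched on both strands. For Smad proteins these were the element GGCGCC with its variant form GGAGCC, then the palindrome GTCTAGAC with the shorter element CAGACA. For TCF/LEF proteins the element CTTTGAT was searched with its variant form CTTTGTT. A match is a match of letters only. The sequences are printed in the order scaffold, kinase, tankyrase and TCF genes.
Axin1, chr17:26187401-26187700: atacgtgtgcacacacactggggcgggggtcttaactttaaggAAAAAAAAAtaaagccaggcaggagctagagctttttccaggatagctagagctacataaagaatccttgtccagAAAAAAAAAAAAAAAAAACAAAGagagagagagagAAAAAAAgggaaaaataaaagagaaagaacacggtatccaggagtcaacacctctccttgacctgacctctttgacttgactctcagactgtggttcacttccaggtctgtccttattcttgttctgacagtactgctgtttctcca
Gsk3b, chr16:38222403-38222702: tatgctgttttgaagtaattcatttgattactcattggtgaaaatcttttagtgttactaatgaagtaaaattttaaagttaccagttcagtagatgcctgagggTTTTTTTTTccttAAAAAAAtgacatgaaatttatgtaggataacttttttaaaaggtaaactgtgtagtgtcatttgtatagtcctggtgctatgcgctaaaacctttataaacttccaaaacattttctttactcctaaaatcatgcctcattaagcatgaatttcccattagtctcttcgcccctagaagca
Tnks2, chr19:36818828-36819127: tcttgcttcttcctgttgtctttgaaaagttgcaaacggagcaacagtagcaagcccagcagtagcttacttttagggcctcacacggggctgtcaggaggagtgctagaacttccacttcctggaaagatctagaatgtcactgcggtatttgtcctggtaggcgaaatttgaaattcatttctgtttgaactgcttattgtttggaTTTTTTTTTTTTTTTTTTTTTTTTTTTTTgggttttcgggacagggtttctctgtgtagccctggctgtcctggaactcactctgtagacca
Tcf7l2, chr19:55853502-55853801: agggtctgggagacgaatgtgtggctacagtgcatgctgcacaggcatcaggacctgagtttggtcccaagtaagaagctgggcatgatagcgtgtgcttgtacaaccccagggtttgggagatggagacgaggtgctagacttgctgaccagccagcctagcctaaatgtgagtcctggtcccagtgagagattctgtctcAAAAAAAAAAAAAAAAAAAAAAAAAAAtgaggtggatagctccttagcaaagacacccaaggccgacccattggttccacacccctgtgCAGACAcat
A single long run stands out in Tnks2 (29 T) and Tcf7l2 (27 A), and Axin1 has runs of 9, 18 and 7 A. Gsk3b has only a run of 9 T and one of 7 A. The CTTTGTT match of Axin1, read on the minus strand, ends inside its 18-base run and shares bases with it.

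The scaffold genes were called differently with IWR-1. At Axin1, which lies on the plus strand at chr17:26138688-26195811, the common DMSO site covered the boundary of intron 5 and exon 6 (chr17:26187253-26187848), 48.9 kb from the main start. The score of 53.67 in DMSO MACS ranked at the 14.8th percentile of that list. Neither IWR-1 list had a peak within 20 kb of Axin1. The other DMSO peak at Axin1, a QESEQ call in intron 2, also had none.

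At Apc (chr18:34220924-34322552, plus strand), 2 common DMSO sites lay in intron 1. The site at chr18:34241612-34242007, 20.8 kb from the start, scored 81.46 (76.6th percentile) and was called in both IWR-1 lists. The site at chr18:34251578-34252597, 31.1 kb from the start, scored 61.17 (39.3rd percentile) and was called in neither. From the nearest annotated coding start, also of Apc, the sites lay 5.89 and 4.39 kb. Both hold long runs of A or T, of 34 and 33 bases. The first held CTTTGAT, and the second, the widest of the 10 with 1020 bp, held GGAGCC and CAGACA. Another place, in intron 7 at chr18:34283761-34284153, was called by QESEQ alone in DMSO and by both IWR-1 lists, so that Apc had 2 peaks in each of those lists.

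The kinase genes each kept a call at their common DMSO site in at least 1 IWR-1 list. At Csnk1a1 (chr18:61555274-61590061, plus strand), the site lay 1.70 kb upstream of the start, at chr18:61553411-61553738, the nearest of the 10 to a coding start. It scored 79.51 (74.5th percentile), held a run of 28 bases and a CAGACA, and was called in both IWR-1 lists. The second MACS peak covered all 328 bp of the site and scored 86.87, the 82.0th percentile of its own list.

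At Gsk3b (chr16:38089001-38246084, plus strand), the site lay in intron 9, 134 kb from the start (chr16:38222394-38222710). The nearest annotated coding start, also of Gsk3b, was 14.5 kb from the site. The score of the site, 98.35 (87.9th percentile), was the second highest of the 10. IWR-1 QESEQ had no peak there. The second MACS list had one that shared 72 bp with the site and scored 50.66, the 3.62nd percentile of its list. The site had none of the 6 elements and the lowest GC content of the 10, 31.5%. The other place with calls in several lists lay 13.6 kb upstream, at chr16:38075234-38075665. DMSO MACS called it with a score of 83.9 (79.1st percentile), DMSO QESEQ did not, and both IWR-1 lists did. It is thus outside the common list although 3 of the 4 single-caller lists hold it.

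Of the tankyrase genes, Tnks (chr8:34826460-34965690, minus strand) had 2 DMSO QESEQ peaks, in intron 21 and downstream of the gene, and no peak in the other lists. Tnks2 (chr19:36834232-36893477, plus strand) had 1 common DMSO site, 15.3 kb upstream at chr19:36818805-36819149, where it overlapped the processed pseudogene AC116128.1. It scored 51.52 (6.38th percentile) and was called in neither IWR-1 list. The second MACS list had a peak of its own in intron 11, at chr19:36864220-36864553, with a score of 54.35. No DMSO list and no IWR-1 QESEQ peak overlapped it.

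Ctnnb1 (chr9:120929216-120960507, plus strand), the gene of β-catenin, had 1 peak in the 5 lists. DMSO MACS called it at chr9:120918541-120918976, 14.6 kb upstream of the main start and 10.5 kb from the nearest annotated coding start. Its score was 62.21 (42.2nd percentile), and neither DMSO QESEQ nor either IWR-1 list had a peak there. Together with Tnks it is the gene for which the callers agreed on no site in DMSO.

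The TCF genes held 4 of the 10 common DMSO sites. Tcf7l1 (chr6:72626378-72789254, minus strand) had the highest and the lowest score of the set. The upstream site, 17.6 kb before the start at chr6:72806715-72807051, scored 251.33 (97.3rd percentile) and was called in both IWR-1 lists. The second MACS peak there shared 280 bp with the site and scored 199.67, the 94.6th percentile of its list. The IWR-1 QESEQ peak shared 141 bp with the site. The site in intron 3, 5.81 kb after the start at chr6:72783313-72783577, scored 50.42 (1.78th percentile) and was called in neither. The remaining site, chr6:72612103-72612723, lay beyond the end of Tcf7l1 and 177 kb from its start, inside the neighbouring coding gene Tgoln1 and the transcript Gm20536. It scored 56.85 (26.0th percentile) and was called by IWR-1 QESEQ but not in the second MACS list. The sequence of the downstream site, chosen after its values were seen, is shown.
Tcf7l1 downstream, chr6:72612264-72612563: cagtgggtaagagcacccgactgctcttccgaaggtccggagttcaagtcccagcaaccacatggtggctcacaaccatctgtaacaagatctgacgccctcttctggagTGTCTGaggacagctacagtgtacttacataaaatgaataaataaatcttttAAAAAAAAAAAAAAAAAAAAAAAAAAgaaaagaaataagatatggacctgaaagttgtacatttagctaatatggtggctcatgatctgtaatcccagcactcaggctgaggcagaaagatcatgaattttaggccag
This site has a run of 26 A. In it, CAGACA is marked on the minus strand (TGTCTG), and its CTTTGAT lies outside the printed bases. Soft-masked bases, those the genome file marks as repeats, made up 91.7% of the intron 3 site and 67.1% of the upstream site. They also made up 61.3% of the Csnk1a1 site and 52.8% of the 20.8 kb site of Apc. In all, 4 of the 10 sites were over 50% masked, against 34.2% of all common sites.

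Tcf7l2 (chr19:55741820-55933654, plus strand) had 1 common DMSO site in intron 4, 111 kb from the start at chr19:55853468-55853835. This site lay 40.9 kb from the nearest annotated coding start, also of Tcf7l2. It scored 69.65 (59.3rd percentile) and was called in both IWR-1 lists. IWR-1 QESEQ shared 198 bp with it and the second MACS list 104 bp, with a score of 50.71 (3.88th percentile). The DMSO MACS peak at chr19:55837567-55837883, also in intron 4, scored 53.18 and was called by IWR-1 QESEQ but not in DMSO QESEQ or in the second MACS list.

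Over the 10 sites, 5 had an IWR-1 QESEQ call (50.0%, 95% exact binomial interval 18.7 to 81.3), against 37.0% of all common DMSO sites. The second MACS list also called 5, against 25.8%. When site and peak had to share at least 50% of each, it called 3 of 10 (22.1% of all sites), since its peaks at Gsk3b and Tcf7l2 covered only 22.7% and 28.3% of the site. Under that rule IWR-1 QESEQ called 4 of 10, since its peak covered 41.8% of the upstream Tcf7l1 site. The matching share of all sites is not given here. With any overlap of at least 1 bp, both lists called 4 (18.4% of all sites) and neither called 4 (55.6% of all sites). These intervals include only the counting error of sites, and the shares of all sites lay inside them in each of these 4 cases (12.2 to 73.8% for the last pair). The sites with no IWR-1 call were those of Axin1 and Tnks2, the 31.1 kb site of Apc and the intron 3 site of Tcf7l1.

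The calls were also set beside the DMSO score. The 4 sites called in both IWR-1 lists had a median score percentile of 75.5 (59.3 to 97.3), and the 4 called in neither 10.6 (1.78 to 39.3), so these ranges did not overlap. The sites called in 1 list only lay on both sides. Gsk3b, at 87.9, had no IWR-1 QESEQ call, and the downstream Tcf7l1 site, at 26.0, had one. With these included, the 6 sites called in either list ran from 26.0 to 97.3 and overlapped those called in neither. Over all common sites the calls also rose with score, in bands chosen after the data were seen. IWR-1 QESEQ called 28.8% of the sites that scored 50 to 60, 34.6% of those at 60 to 80, 40.9% at 80 to 100 and 65.8% at 100 or more. Of the members' sites in these bands it called 1 of 4, 2 of 3, 1 of 2 and 1 of 1. The second MACS list called 14.1%, 21.5%, 32.7% and 68.4% of all sites in the same bands. Of the members' sites it called 0 of 4, 2 of 3, 2 of 2 and 1 of 1. As a set, the 10 sites ranked near the middle, with a median percentile of 49.3 against 52.8 over all common sites.

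**Figure D3:**
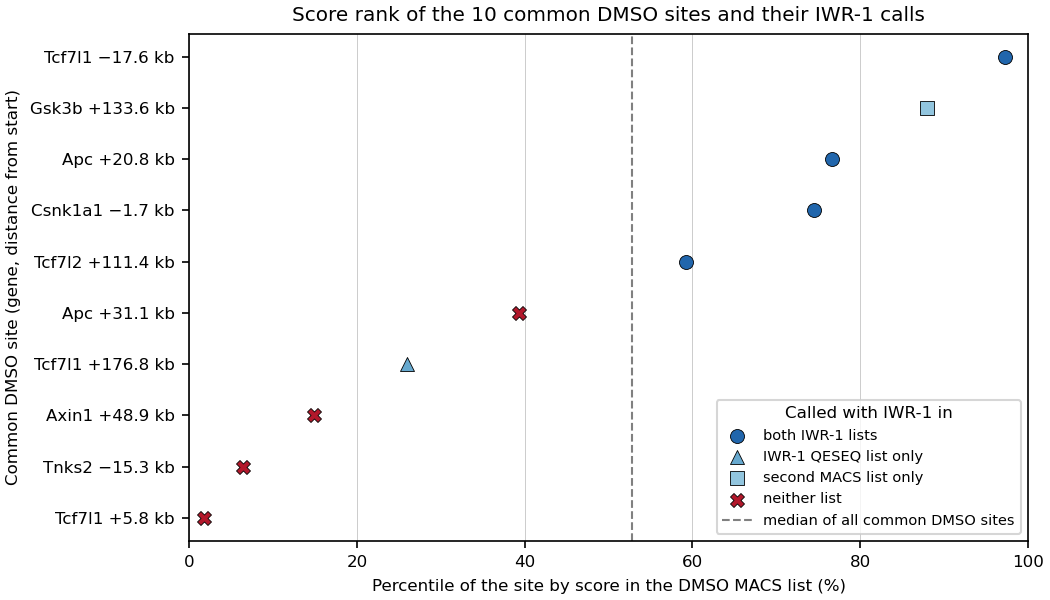
Percentile of the 10 common DMSO sites by score in the DMSO MACS list (horizontal axis), 1 row per site, with symbols for the IWR-1 lists that called it and a dashed line at the median of all common DMSO sites, 52.8. The 4 sites called in both IWR-1 lists lie from 59.3 to 97.3, and the 4 called in neither from 1.78 to 39.3.

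Ranks within the MACS lists were set side by side where peaks of both lists overlapped. Scores themselves are not comparable between lists, and the lists differ in length. There were 6 such pairs at the 9 genes. Csnk1a1, the upstream Gsk3b peak and the upstream Tcf7l1 peak ranked at 82.0, 75.5 and 94.6 in the second list, close to their DMSO ranks of 74.5, 79.1 and 97.3. Apc, the intron 9 peak of Gsk3b and Tcf7l2 ranked at 11.4, 3.62 and 3.88 in the second list and at 76.6, 87.9 and 59.3 in DMSO. In 5 of 6 pairs the rank was lower in the second list (83.3%), as it was in 66.6% of the 4534 DMSO MACS peaks with a second MACS call, whose median percentile was 73.2 in DMSO and 62.6 in the second list. A rank in a list of 7815 peaks and one in a list of 15927 are not the same measure, so these values give no change in binding.

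**Figure D4:**
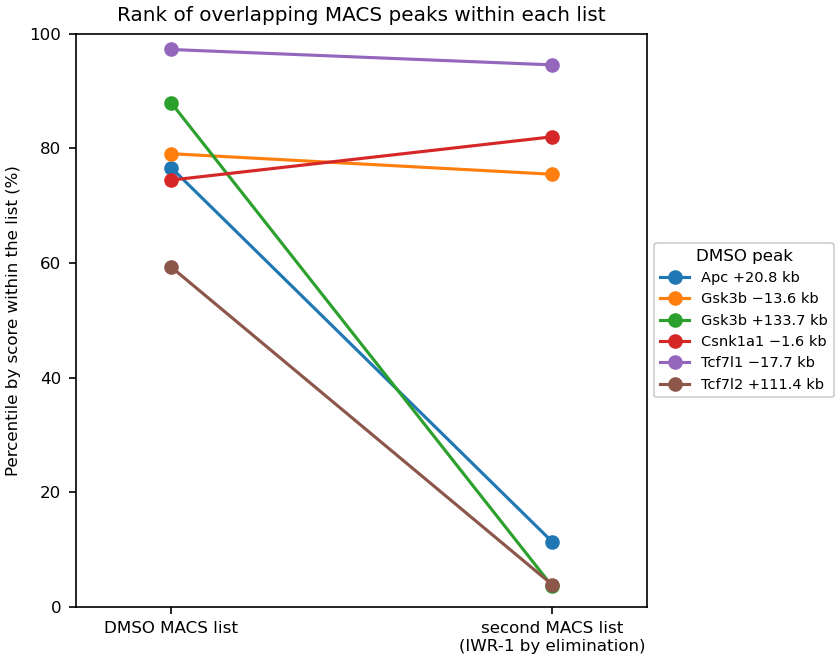
Percentile by score within each MACS list (vertical axis) for the 6 DMSO MACS peaks that overlap a peak of the second MACS list, joined by lines, with the distance of the DMSO peak's middle from the start. Csnk1a1, upstream Gsk3b and Tcf7l1 lie at 75.5 or above in the second list, and the others lie at 11.4 or below.

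The sequence elements at the 10 sites had shares whose 95% exact binomial intervals held the share over all common sites, in each case given here. A run of at least 7 A or T was in 10 of 10 (all sites 90.3%), and in 10 of 10 within the central 200 bp (76.0%). A run of at least 10 was in 8 of 10 (87.2%), the exceptions being Gsk3b and the upstream Tcf7l1 site. The median longest run was 26.5 bases (25.0 over all sites), and its middle lay 39.0 bp from the middle of the site (58.0 bp). Any Smad or TCF/LEF element was in 6 of 10 (54.3%), any Smad element in 4 (44.2%) and any TCF/LEF element in 3 (18.3%). CAGACA was in 4 sites (32.0%), CTTTGAT in 2 (7.47%), CTTTGTT in 1 (11.9%), GGAGCC in 1 (17.4%), and GGCGCC (2.66%) and GTCTAGAC (0.411%) in none. Within the central 200 bp, a like length for every site, any element was in 4 of 10 (29.4%). Median GC content was 43.2% (41.5%) and the median share of soft-masked bases 45.5% (38.2%).

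The letters GTTCGA, the core of the internal B box of tRNA genes, were searched after the sequences had been read. They were at the Csnk1a1, Tnks2 and upstream Tcf7l1 sites, 3 of 10, against 15.1% of the common sites outside tRNA genes and 79.9% of the 214 at tRNA genes. No tRNA gene overlaps any of these sites, and 3 of 10 is too few to read as an excess. Soft-masked bases made up 61.3% of the Csnk1a1 site, 42.3% of the Tnks2 site and 67.1% of the upstream Tcf7l1 site. Whether the letters lie in repeats was not tested.

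Single-caller DMSO peaks added 15 QESEQ and 3 MACS peaks to the 10 sites. Only the intron 7 peak of Apc among the 15 QESEQ peaks had a call in either IWR-1 list, against 20.8% of all DMSO QESEQ peaks outside the common list. These 15 included 3 at Csnk1a1, 3 at Tcf7l1, 3 at Tcf7l2, 2 at Apc, 2 at Tnks and 1 each at Axin1 and Gsk3b. Of the 3 MACS peaks, 2 had an IWR-1 call, those of Gsk3b and Tcf7l2, and that of Ctnnb1 had none. Over all DMSO MACS peaks outside the common list, 44.0% had such a call. The central bases of the Ctnnb1 and Tcf7l2 peaks are printed, as DMSO peaks on which the callers differed and which carry a score. They were chosen for printing after their values were seen.
Ctnnb1 upstream, chr9:120918609-120918908: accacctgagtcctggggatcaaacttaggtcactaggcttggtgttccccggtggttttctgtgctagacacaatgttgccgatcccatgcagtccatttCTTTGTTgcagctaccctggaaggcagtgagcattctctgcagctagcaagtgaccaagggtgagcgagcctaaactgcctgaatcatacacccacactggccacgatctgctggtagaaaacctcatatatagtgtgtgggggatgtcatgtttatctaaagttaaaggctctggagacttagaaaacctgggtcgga
Tcf7l2 intron 4, chr19:55837576-55837875: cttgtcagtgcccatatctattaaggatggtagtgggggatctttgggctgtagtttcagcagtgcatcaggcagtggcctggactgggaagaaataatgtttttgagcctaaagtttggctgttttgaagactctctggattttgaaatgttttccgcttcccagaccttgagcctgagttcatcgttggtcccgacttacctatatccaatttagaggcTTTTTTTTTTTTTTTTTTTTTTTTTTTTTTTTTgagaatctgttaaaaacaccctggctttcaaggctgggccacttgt
Tcf7l2 has a run of 33 T, and its peak also holds a CAGACA that is not wholly within the printed bases. Ctnnb1 has no run of 7, its longest being 4 bases, and a single CTTTGTT.

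IWR-1 QESEQ peaks that overlapped neither DMSO list numbered 5 of the 13 at these genes, against 52.9% of all peaks of that list. They lay in intron 7 of Gsk3b (chr16:38196433-38196802), intron 2 of Csnk1a1 (chr18:61565840-61566061), introns 11 and 3 of Tcf7l1 (chr6:72628501-72629261 and chr6:72768240-72768662) and intron 3 of Tcf7l2 (chr19:55769854-55770382). The Csnk1a1 peak was also in the second MACS list, with a score of 57.94 (36.0th percentile of that list), and held CAGACA and CTTTGTT. It was the only 1 of the 13 both outside the DMSO lists and in the second MACS list, against 6.32% of all IWR-1 QESEQ peaks. Of the second MACS list, 2 of 9 peaks lay outside both DMSO lists, those of Csnk1a1 and of Tnks2 intron 11, against 29.0% of that list. Axin1, Apc, Tnks and Ctnnb1 had no such peak in either list.

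Runs were also counted in the peaks outside the common list. A run of at least 7 was in 1 of the 5 IWR-1 QESEQ peaks outside the DMSO lists, the Tcf7l1 peak 20.8 kb from the start, against 55.6% of the 8595 such peaks in the genome. It was in 8 of the 15 DMSO QESEQ peaks outside the common list (72.7% of 15601) and in 2 of the 3 DMSO MACS peaks (81.3% of 5457). The order of the shares over the genome, from common sites to IWR-1 QESEQ peaks outside the DMSO lists, is 90.3%, 81.3%, 72.7% and 55.6%. In the second MACS list, a run was in 1 of the 2 peaks outside the DMSO lists, against 70.3% of the 2267 such peaks, a share close to that of the DMSO QESEQ peaks.

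**Figure D5:**
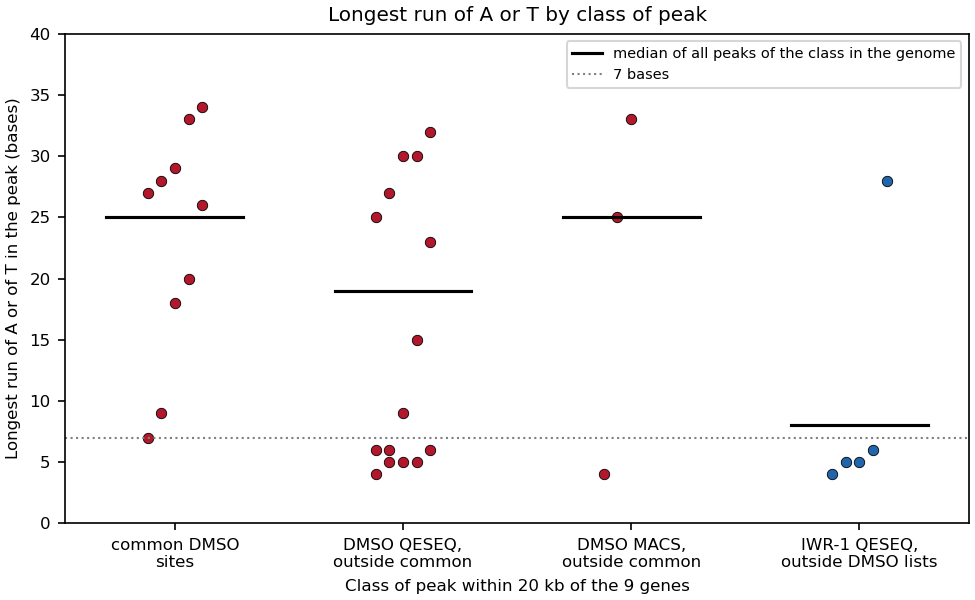
Longest run of A or of T in bases (vertical axis) in each peak within 20 kb of the 9 genes (points), by class of peak (horizontal axis), with the genome-wide median of each class as a bar and a dotted line at 7 bases. All 10 common DMSO sites reach the line, and 1 of the 5 IWR-1 QESEQ peaks outside the DMSO lists does.

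At the edge of the 20 kb window, the farthest site inside was the upstream Tcf7l1 site, 17.5 kb from the gene body, and the nearest outside lay 22.8 kb beyond Tcf7l2 with a score of 62.14. Another lay 23.2 kb from Csnk1a1, with a score of 67.76. The highest scores between 20 and 50 kb were 33.9 kb from Axin1 (110.25), 48.1 kb from Apc (102.79) and 49.4 kb from Csnk1a1 (93.89). The rest, 32.6 kb from Gsk3b and 32.6 and 40.4 kb from Axin1, scored 55.3, 53.93 and 51.45.

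The other genes of the pathway were taken from a list of 36. It holds further members of the complex, the other CK1 and PP2A genes, the ubiquitin ligase and tankyrase partners, Dishevelled genes, other TCF/LEF genes and TCF cofactors. Of these 36 genes, 20 had a common DMSO site, against 35.1% of all coding genes, with 37 sites in all. The 36 windows ran from 44.9 to 224 kb and covered 3.58 Mb. The median window of all coding genes is 57.4 kb, and no share for genes of like window length was taken here. Site density at the 36 genes was 1.03 per 100 kb, against 0.575 over coding windows. IWR-1 QESEQ called 19 of the 37 (51.4%, 34.4 to 68.1), against 37.0% of all common sites. The second MACS list called 12 of the 37 (32.4%), against 25.8% of all common sites. Neither list called 16 of the 37, against 55.6% of all common sites. Their median score percentile was 34.8, against 52.8. The highest scores were at the corepressor gene Tle3 (195.81), the corepressor gene Ctbp2 (113.9) and Fbxw11 (109.8), a substrate receptor of the ligase that ubiquitinates β-catenin, and each of these sites had an IWR-1 QESEQ call. The next highest, at the TCF/LEF gene Lef1 (108.71), had a call in the second MACS list only. In 5 genes no common DMSO site had a call in either IWR-1 list. These were Csnk1g3 and Csnk1d, which encode CK1 kinases, the coactivator gene Ep300, Pygo1, which encodes a β-catenin cofactor, and Btrc, another substrate receptor of the ligase. At Axin2, the paralogue of Axin1 and a known Wnt target, the single site scored 56.12 (23.6th percentile) and had calls in both lists. The site of Axin1, at 53.67 (14.8th percentile), had none. Other genes of the 36 also had a single site with calls in both lists.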

How the data were processed

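Peaks were called on Smad1 ChIP–seq of 2 treatments with 1 ChIP and 1 input library each. Single-end reads were mapped by the authors to mm10 (Bowtie2 2.1.0) and cleared of PCR duplicates. The authors then called peaks with MACS 1.0.1 and QESEQ, and took the peaks of both callers as common sites. Versions are those in the submitters' processing notes. They deposited positions for all 5 lists and, for the MACS lists, the score that MACS gave each peak. The deposited score was used only to rank peaks within a list. Labels and list contents disagree as described above, and all lists were read as counted from 0.

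An overlap was at least 1 bp. Genes came from GENCODE M21, and sequences, repeat masking and tRNA genes from NCBI's GRCm38.p6, the same assembly. A site took the highest score of the DMSO MACS peaks that overlap it, and percentiles are ranks in the full list. As main transcript, the coding one annotated as principal was used. Shares carry 95% exact binomial (Clopper-Pearson) intervals. All 9 genes were named, with every common site and IWR-1 call. Of the 36 other genes, the 3 with the highest score and those whose sites all lack an IWR-1 call were named. Axin2 and Lef1 were added after their values were seen. The members and lists were chosen with earlier results of these data known. Genes of like length, score bands and the GTTCGA search were added after seeing the data. Alternatives covered the window, the caller, the overlap rule and the score threshold. Scripts ran in Python 3.11.15 (pysam 0.24.0, numpy 2.4.6, matplotlib 3.10.9, scipy 1.17.1). The overlap, motif and run steps were tested on simulated data. Some sequences are not reported here.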

Additional observations from a re-analysis of the deposited data

How the results depend on the processing

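Of 47 alternatives to 11 results, 37 left the value within its error or within 1.5 times of it and 10 did not. The number of common DMSO sites was 6 in the gene bodies alone and 18 with a window of 50 kb, and the DMSO QESEQ list alone gave 25 peaks, or 1.93 per 100 kb. Only 1 of the 10 sites scored at least 100, and with that threshold the share with an IWR-1 QESEQ call was 100%. IWR-1 QESEQ peaks outside both DMSO lists numbered 10 with a window of 50 kb, and the second MACS list had 2 such peaks. Of the 36 other pathway genes, 13 had a common DMSO site in the gene body, and the share of their sites with an IWR-1 call was 32.4% in the second MACS list and 27.0% in both lists. No paired analysis was possible because each treatment has 1 ChIP library and no result comes from a test. With 10 sites, the intervals are wide (18.7 to 81.3% for the IWR-1 QESEQ share), and the depth behind each peak is unknown, so a missing call cannot be told apart from a peak just under a caller's threshold. A difference between treatments here is a difference between 2 ChIP libraries.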
